A study of Mus musculus with 23 samples.

Results

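The neutrophil granule genes read here are 10 transcripts of the 24454 genes in the count table: Mpo, Elane, Prtn3 and Ctsg, Ngp, Ltf, Camp and Lcn2, and S100a8 and S100a9. They were picked by symbol with some of their values known. The genotype difference in long-term haematopoietic stem cells, and the levels of Mpo and Ngp in one wild-type CD41- HSC library, had been seen when the list was drawn up, so the LT-HSC genotype difference is given as a description. Tests of MkP against LT-HSC and over the CD41 fractions include some of those libraries and are not independent of the choice of genes. All 10 passed the filter on low counts in both main fits, but some alternative fits tested fewer.

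Blood stem and progenitor cells were sorted from crushed tibiae and femora of C57BL/6 mice, and polyadenylated RNA of each sort was sequenced as a bulk library, 23 in all. The mice were wild type (WT) or SclCre;V617F transgenics (SF1), which carry Cre under Scl, a gene of blood stem and progenitor cells, and turn on mutant JAK2 (V617F) after tamoxifen. Both genotypes received tamoxifen for 5 days and were killed 12 weeks later. The labels used here state no ages. Long-term stem cells (LT-HSC), sorted as CD150+ CD48- cells within the lineage-negative Sca-1+ cKit+ gate, and megakaryocyte progenitors (MkP: lineage-negative, cKit+, Sca-1-, CD150+, CD41+) had 3 WT and 3 V617F libraries each, made with SMART-Seq v2. The LT-HSC gate split by CD41 gave CD41- HSC with 3 WT and 3 V617F libraries and CD41+ HSC with 2 WT and 3 V617F libraries, made with SMART-Seq v4. WT LT-HSC came from females and V617F LT-HSC from males. All MkP libraries were from females, and V617F number 2 of both CD41 fractions was from a male. Cell population, amplification kit and genotype therefore overlap only in part: the v2 and v4 libraries differ in both kit and cells, which cannot be told apart, and they were scaled and tested separately. No label says that libraries of a group came from separate mice, so p-values measure the spread between these libraries.

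Libraries held 17.6 to 49.2 M counts, with a median of 22.2 M. The WT SMART-Seq v2 libraries stood apart: 30.9 to 49.2 M counts spread over only 11483 to 13805 genes, against 14634 to 15697 genes in the V617F v2 libraries, with within-group Spearman correlations as low as 0.809 in WT LT-HSC and 0.85 in WT MkP. Levels are in CPM, counts-per-million of library totals scaled by the trimmed mean of M-values, and 3 counts correspond to 0.0597 to 0.171 CPM. Megakaryocyte markers summed to 5770 to 7070 CPM in MkP of both genotypes and to 2070 to 5170 CPM in LT-HSC. Stem cell markers summed to 1140 to 1630 CPM in MkP and 1420 to 3040 CPM in LT-HSC, with WT LT-HSC number 30, at 1420 CPM, within the MkP range. Both lists include genes of the sort markers, such as Itga2b (CD41) and Ly6a (Sca-1). The base change in Jak2 cannot be read from gene counts. Jak2 itself stood at 14.5 to 46.4 CPM in the WT v2 libraries and 65.6 to 128 CPM in the V617F v2 libraries, which did not overlap. The genotypes overlapped in the v4 libraries.

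Neutrophils store their weapons in granules that are made in sequence. Promyelocytes make the primary (azurophil) granules, with myeloperoxidase (Mpo), which produces hypochlorous acid, and the serine proteases neutrophil elastase (Elane), proteinase 3 (Prtn3) and cathepsin G (Ctsg). Myelocytes then make the secondary (specific) granules, with neutrophilic granule protein (Ngp), the iron-binding lactoferrin (Ltf), the antimicrobial cathelicidin (Camp) and the siderophore-binding lipocalin 2 (Lcn2). S100a8 and S100a9 pair to form calprotectin, a calcium- and metal-binding protein that fills the cytosol of neutrophils and monocytes. Granulocyte and monocyte progenitors carry the primary granule transcripts, whereas specific granule transcripts mark later neutrophil precursors.

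The genes lie on 6 chromosomes (RefSeq, GRCm38.p6, the assembly also called mm10). Prtn3 (chr10:79879667-79883174) and Elane (chr10:79886312-79888216) are neighbours with 3137 bases between them. S100a8 (chr3:90669071-90670034) and S100a9 (chr3:90692630-90695721) are 22595 bases apart. Camp (chr9:109847377-109849456), Ngp (chr9:110419808-110423012) and Ltf (chr9:111019292-111042766) share a chromosome, Mpo is at chr11:87793784-87804412, Ctsg at chr14:56099885-56102574 and Lcn2 at chr2:32384637-32387739. The annotation places 1 other gene over a member, the predicted Gm34064 over Mpo. Use of strand in counting is not given in the sources used here, so reads of that pair cannot be told apart.

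The 250 bases before the RefSeq start of Mpo (chr11:87793534-87793783, plus strand), Elane (chr10:79886062-79886311, plus), Prtn3 (chr10:79879417-79879666, plus), Ctsg (chr14:56102575-56102824, minus) and Ngp (chr9:110419558-110419807, plus) are shown because the first 4 encode primary granule proteins yet Prtn3 varied apart from the others, and Ngp stands for the specific granule genes. They are written 5' to 3' on the gene's strand, and capitals mark AGGAAGT, the core bound by PU.1 and other ETS factors, and AACGG, a core bound by MYB, on either strand.
Mpo: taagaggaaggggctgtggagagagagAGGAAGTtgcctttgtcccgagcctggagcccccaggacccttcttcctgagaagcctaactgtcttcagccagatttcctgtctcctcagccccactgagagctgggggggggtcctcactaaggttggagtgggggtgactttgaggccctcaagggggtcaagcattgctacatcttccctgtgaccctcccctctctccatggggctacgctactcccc
Elane: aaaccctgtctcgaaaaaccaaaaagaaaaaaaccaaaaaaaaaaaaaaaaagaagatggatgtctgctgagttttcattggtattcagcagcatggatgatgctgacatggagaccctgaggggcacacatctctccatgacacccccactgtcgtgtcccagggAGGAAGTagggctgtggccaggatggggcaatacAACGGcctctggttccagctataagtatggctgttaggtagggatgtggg
Prtn3: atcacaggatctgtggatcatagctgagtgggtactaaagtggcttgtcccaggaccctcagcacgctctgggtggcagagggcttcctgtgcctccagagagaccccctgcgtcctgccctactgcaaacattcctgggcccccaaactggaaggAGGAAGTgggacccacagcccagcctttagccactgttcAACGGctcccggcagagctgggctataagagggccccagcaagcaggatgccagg
Ctsg: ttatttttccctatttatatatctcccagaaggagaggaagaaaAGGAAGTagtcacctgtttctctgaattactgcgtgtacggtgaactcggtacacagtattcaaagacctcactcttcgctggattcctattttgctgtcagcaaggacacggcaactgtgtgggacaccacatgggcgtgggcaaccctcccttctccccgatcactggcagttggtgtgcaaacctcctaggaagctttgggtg
Ngp: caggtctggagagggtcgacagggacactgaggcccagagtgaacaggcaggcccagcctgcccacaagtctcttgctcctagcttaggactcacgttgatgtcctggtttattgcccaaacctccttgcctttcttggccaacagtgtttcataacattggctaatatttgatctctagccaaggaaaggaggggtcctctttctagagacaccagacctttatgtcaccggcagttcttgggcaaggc
AGGAAGT was in the upstream window of all 4 primary granule genes and, on the reverse strand, of S100a8, that is 5 of the 10, against 7.8% of 27025 promoters of this length. It began 84 bases before the start in Elane and 94 in Prtn3. AACGG was in 2 of the 10, Elane and Prtn3, beginning 50 and 55 bases before the start, against 14.8% of all promoters. GCAAT, which is one arm of the palindrome bound by C/EBP factors, was in 8 of the 10, all but Prtn3 and Ctsg, against 23.3%. These motifs were searched on both strands, do not overlap each other in the members, and were chosen after the sequences had been read. They are letter matches, not measured binding. Prtn3 and Elane thus had the same pair of cores at nearly the same distance, but did not have like levels in these cells.

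In the libraries the 10 transcripts did not form one block. The plot of levels by library shows 3 patterns. Mpo, Elane and Ctsg were highest in WT MkP, and Ngp, Ltf, Camp, Lcn2, S100a8 and S100a9 were highest in WT LT-HSC. Prtn3 had group means between 41.6 and 392 CPM, the highest also in WT LT-HSC. Across the 12 SMART-Seq v2 libraries, log2(CPM + 1) of Mpo had Pearson r of 0.95 with Elane and 0.97 with Ctsg, but 0.28 with Ngp and 0.08 with Prtn3. Ngp had r of 0.98 with Lcn2, 0.98 with S100a8 and 0.83 with Ltf. Across the 11 v4 libraries the values were 0.97 for Mpo with Elane, 0.95 with Ctsg, 0.58 with Ngp and 0.42 with Prtn3, and 0.97 for Ngp with Camp. Prtn3 went partly with the specific granule genes in v2, with r of 0.65 with Ngp and 0.70 with Lcn2. In v4 these were 0.03 and -0.10. These points share groups and library depth, and the correlations describe them without a test. With each group's mean removed, Ngp with Camp kept 0.99 in v2 and 0.97 in v4, whereas Mpo with Ngp had -0.12 and 0.60. Not every pair within a set held so well in v2: Ngp with Ltf had 0.21 in v2 and 0.99 in v4, and Mpo with Elane 0.62 and 0.96. Across the sets, Mpo with S100a8 had -0.08 and 0.75, and Prtn3 with Elane 0.64 and 0.05.

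**Figure D1:**
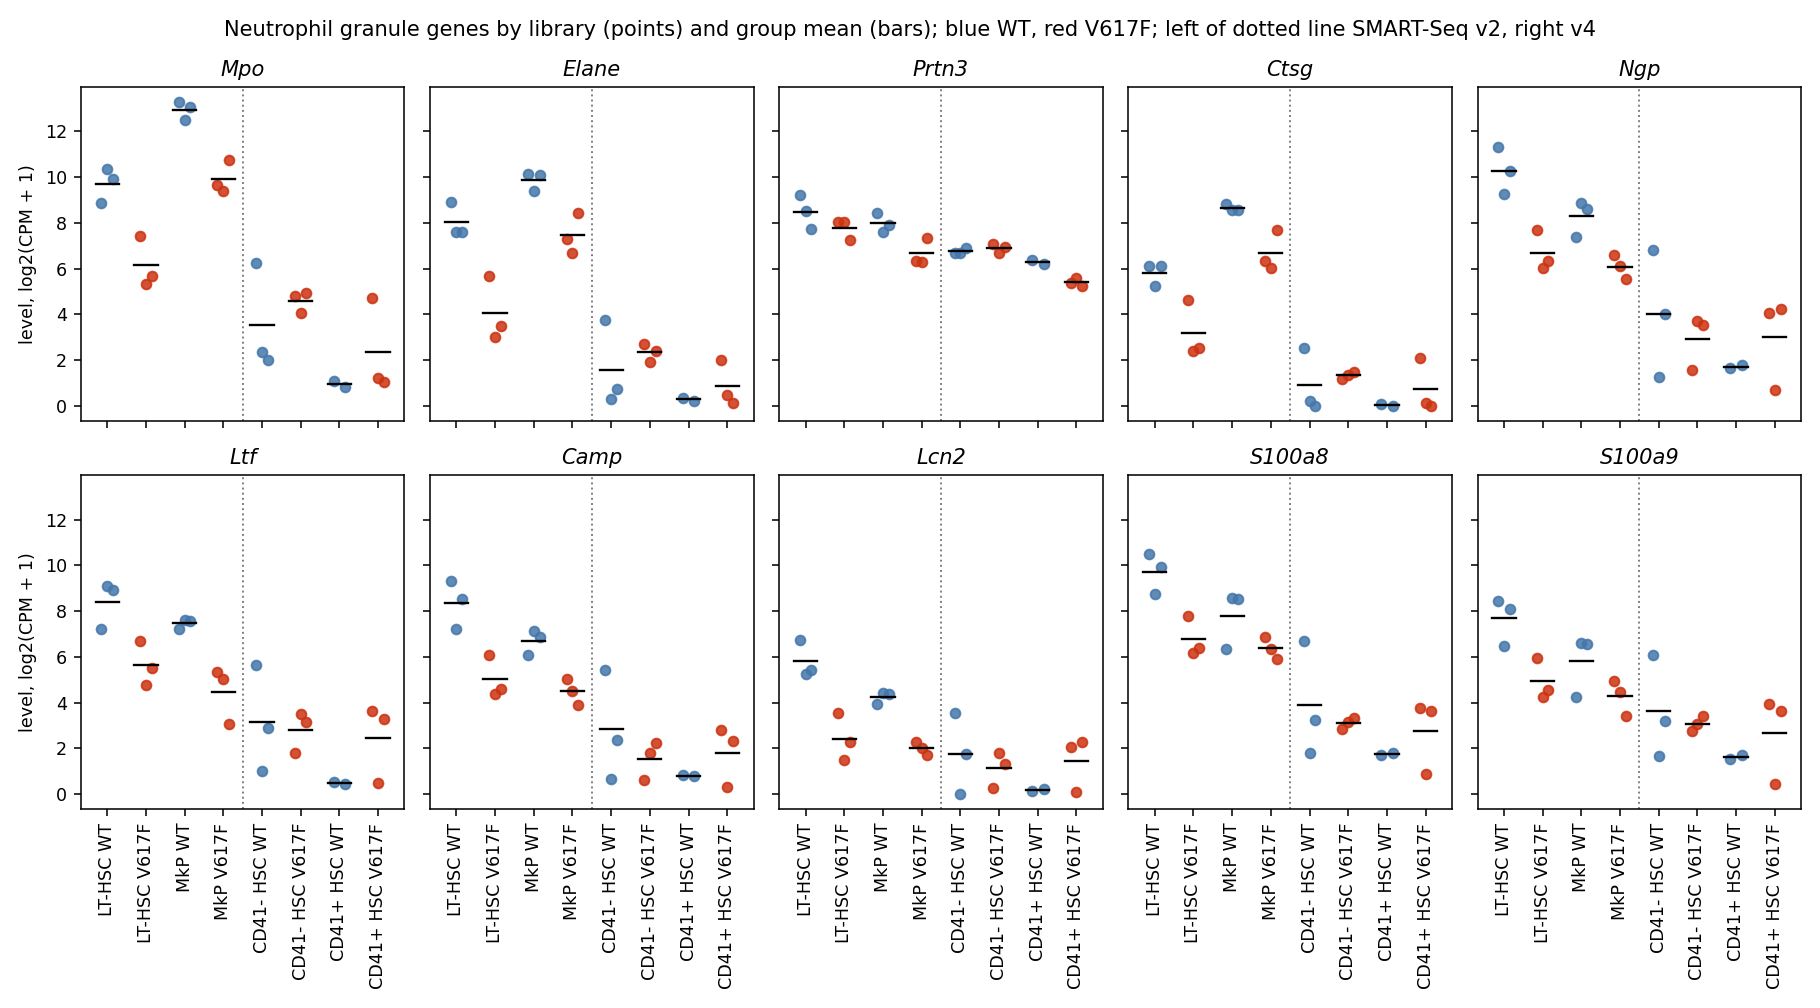
Level of each of the 10 genes, log2(CPM + 1), in every library (points; blue WT, red V617F) with the group mean (bar), SMART-Seq v2 groups left of the dotted line and v4 groups right of it. Mpo, Elane and Ctsg peak in WT MkP, the specific granule and S100 genes in WT LT-HSC, and Prtn3 lies between 36.7 and 600 CPM in all 23 libraries.

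Primary granule transcripts other than Prtn3 were higher in the megakaryocyte progenitor libraries than in the LT-HSC libraries of the same genotype. Mpo was 9870, 5800 and 8640 CPM in WT MkP (numbers 30, 31 and 32) and 469, 1300 and 959 CPM in WT LT-HSC. In V617F cells it was 805, 663 and 1720 CPM in MkP (numbers 1, 2 and 3) and 172, 39.5 and 50.1 CPM in LT-HSC (numbers 6, 7 and 8). Every MkP library was above every LT-HSC library of its genotype. The fitted log2 difference, MkP minus LT-HSC, was 3.16 in WT (SE 0.63, edgeR quasi-likelihood adjusted p = 0.0106) and 3.60 in V617F (SE 0.64, adjusted p = 0.0203). In V617F the MkP were from females and the LT-HSC from males, so sex and population cannot be told apart there. The LT-HSC libraries had entered the choice of genes, so these tests are not independent of that choice. With only the groups compared in the fit, the WT difference was 3.14 (edgeR adjusted p = 0.0688). In V617F the adjusted p was 0.0595 to 0.124 without LT-HSC number 7 or 8 or MkP number 1 or 3, with log2 differences of 3.07 to 3.80.

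Ctsg followed Mpo at a lower level. It was 462, 374 and 382 CPM in WT MkP against 67.6, 37.2 and 68.2 CPM in WT LT-HSC, and 80.5, 64.2 and 209 CPM in V617F MkP against 24.0, 4.36 and 4.88 CPM in V617F LT-HSC. The groups did not overlap in either genotype, and Ctsg rose by 2.81 on the log2 scale in WT MkP (SE 0.66, edgeR adjusted p = 0.0239) and by 3.41 in V617F MkP (SE 0.68, adjusted p = 0.0388). The WT call for Ctsg was lost with only the groups compared (adjusted p = 0.0651) and without LT-HSC number 31 (0.0601) or MkP number 30 (0.0502). The V617F call was lost with limma-voom (0.075) and without LT-HSC number 7 or 8 or any 1 MkP library (edgeR adjusted p = 0.0754 to 0.193). Elane was 1130, 674 and 1090 CPM in WT MkP against 487, 195 and 193 CPM in WT LT-HSC, and 155, 101 and 347 CPM against 50.1, 7.17 and 10.2 CPM in V617F. Its groups did not overlap, but its log2 differences of 1.72 and 3.16 had edgeR adjusted p of 0.138 and 0.0764. In WT, 2 of the 10 genes passed as higher in MkP, where 2.32% of the 14281 genes tested did, and 1 as lower, where 6.58% did. Groups without overlap were found for 3 members as higher (8.39% of all genes) and 4 as lower (12.1%). In V617F, 2 passed as higher (0.378% of all genes) and 0 as lower (0.714%), with 3 members higher without overlap (17% of all genes). As the LT-HSC libraries of both genotypes had entered the choice of genes, nothing is read from these counts.

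The specific granule genes had the opposite order in WT cells. Ngp was 168, 463 and 388 CPM in WT MkP and 2570, 611 and 1240 CPM in WT LT-HSC. Every MkP library was below every LT-HSC library, and Ngp fell by 2.12 on the log2 scale (SE 0.61, edgeR adjusted p = 0.0495). The LT-HSC libraries had entered the choice of genes, so the differences in this paragraph are a description. The Ngp call sat at the threshold: the adjusted p was 0.218 with only the groups compared, 0.0573 with the stricter filter, and 0.0708 to 0.131 without LT-HSC number 30 or any 1 MkP library, with log2 differences of -1.44 to -2.48. Camp was 66.1, 139 and 115 CPM against 640, 148 and 366 CPM, again without overlap (log2 difference -1.85, edgeR adjusted p = 0.0713). Ltf, Lcn2, S100a8 and S100a9 had log2 differences of -1.14, -1.76, -1.78 and -1.77, and none passed (edgeR adjusted p from 0.0953 to 0.279). In V617F cells the same 6 genes had log2 differences between -0.55 and -1.16, with intervals that all included 0. Prtn3 differed by -0.59 in WT and -1.09 in V617F (edgeR adjusted p = 0.426 and 0.379). The median of the 10 was -1.45 in WT and -0.71 in V617F, against -0.20 and -0.06 for all genes tested.

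Per length, the sum of Mpo, Elane and Ctsg was 3.63 to 18.6 times the sum of the 4 specific granule genes in the 6 MkP libraries and 0.226 to 0.749 times that sum in the 6 LT-HSC libraries. Both genotypes held this separation, with sex following population in V617F. Mpo alone made up 41.7 to 59.8% of the 10 genes' summed level per length in WT MkP and 27.3 to 40.4% in V617F MkP, and a smaller share in each of the other 17 libraries. In WT MkP the 10 genes together took 0.831 to 1.19% of all counts.

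**Figure D2:**
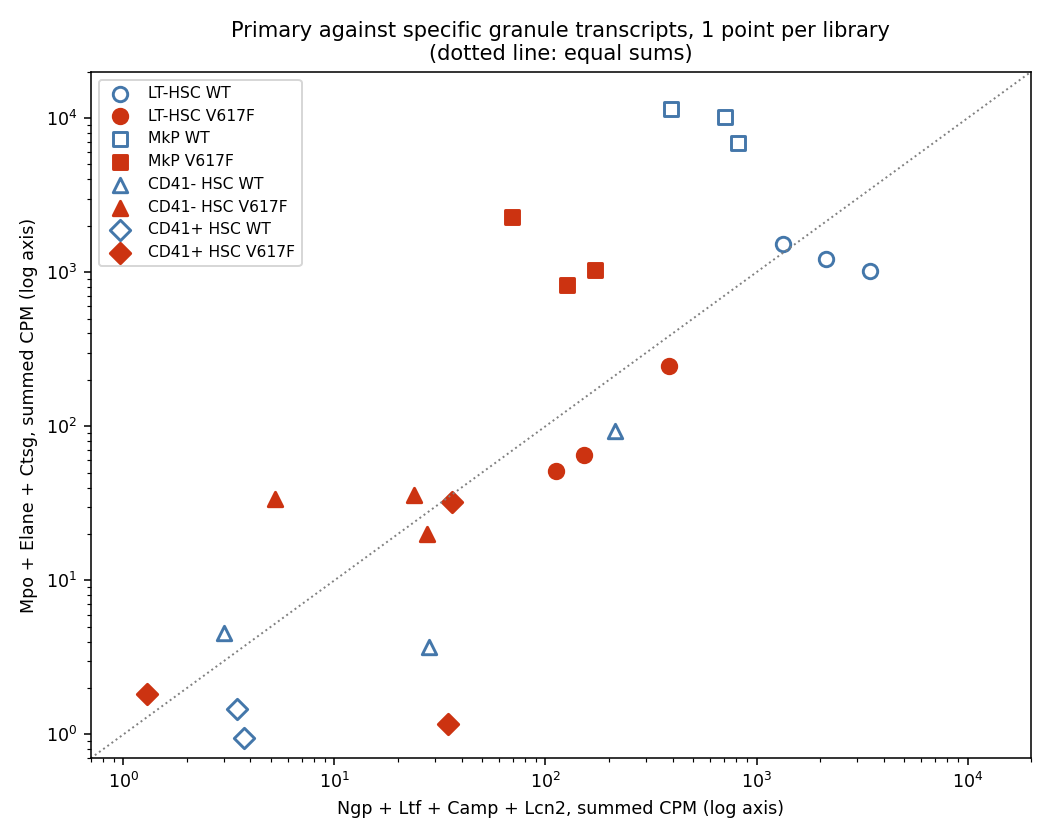
Summed CPM of Mpo, Elane and Ctsg (y) against Ngp, Ltf, Camp and Lcn2 (x), both on log axes, 1 point per library (open WT, filled V617F; shapes give the population; the dotted line marks equal sums). All 6 MkP libraries lie well above the line, the LT-HSC libraries near or below it, and the CD41 fractions scatter over more than 10 times on both axes within a genotype.

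Other genes of the same stages were read beside these from lists of 10 promyelocyte genes, 20 late neutrophil genes and 10 granulocyte transcription factors. In WT MkP against WT LT-HSC, 3 of 18 late neutrophil genes tested passed as lower and 0 as higher, and 17 of 18 had a negative sign. The 3 were the annexin Anxa1 (146 against 535 CPM, edgeR adjusted p = 0.0279), the integrin Itgb2l (no count against 18.2 CPM, edgeR adjusted p = 0.0162) and Retnlg (0.0997 against 9.22 CPM, edgeR adjusted p = 0.0354). Of the promyelocyte genes, 1 passed as higher and 1 as lower. Cst7, a cysteine protease inhibitor, rose from 3.11 to 55.2 CPM (edgeR adjusted p = 0.0321), and the glutathione transferase Gstm1 fell from 684 to 145 CPM (edgeR adjusted p = 0.0158). Spi1, which encodes PU.1, fell from 333 to 82.9 CPM (edgeR adjusted p = 0.0123) and was the only transcription factor of 10 to pass. In V617F, 2 of 18 late neutrophil genes passed as lower and 0 as higher, with 12 negative and 6 positive signs. Among them Csf3r, the receptor for granulocyte colony-stimulating factor, was 5.69 CPM in V617F MkP against 68.9 CPM in V617F LT-HSC (edgeR adjusted p = 0.0474). Of the promyelocyte genes 1 passed as lower and 0 as higher, and 0 transcription factors passed. Of all genes, 6.58% passed as lower in WT and 0.714% in V617F, and 2.32% and 0.378% as higher.

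Markers of other myeloid cells were read beside Mpo. Summed eosinophil, basophil and mast cell markers were 251 to 354 CPM in WT MkP against 16.8 to 66.1 CPM in WT LT-HSC, and monocyte markers 336 to 452 CPM against 91.7 to 290 CPM. Of the first list 6 of 10 genes tested passed as higher and 0 as lower, and of the 14 monocyte markers none passed. In V617F none of either list passed, and the ranges were 64.4 to 140 CPM against 10.7 to 15.9 CPM, and 49.6 to 104 CPM against 65.3 to 95.3 CPM. Of the late neutrophil markers, Itgb2l, Stfa2l1, Fpr1 and Fpr2 had no count in any WT MkP library, and Stfa2l1 had none in LT-HSC of either genotype. The part of these cells in the granule gene levels was not tested. In bulk RNA, fewer cells carrying a transcript and less transcript per cell cannot be told apart.

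In megakaryocyte progenitors, V617F cells had less Mpo. It was 9870, 5800 and 8640 CPM in WT MkP and 805, 663 and 1720 CPM in V617F MkP, a 7.63-fold difference with no overlap (log2 -2.93, SE 0.62, 95% interval -4.28 to -1.58, edgeR adjusted p = 0.0367). Mpo was the 1 member that passed, against 0.126% of the 14281 genes that passed as lower. The other 9 had log2 differences from -1.28 (Prtn3) to -2.78 (Ltf), each with an interval below 0 before adjustment and an adjusted p of 0.0627 to 0.246. An unadjusted p under 0.05 was found for 15.3% of all genes. In 8 of the 10 every V617F library was below every WT library, where 9.99% of all genes were, and the median of the 10 was -2.25 against 0.08 for all genes. The genes were picked with the LT-HSC genotype difference known. WT MkP and WT LT-HSC libraries carry the same numbers and share a fit, so the MkP comparison may not be independent of that choice. Nothing is read from these counts.

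Among the 9, Ltf was 147, 196 and 189 CPM in WT and 38.9, 31.3 and 7.44 CPM in V617F. Ngp was 168, 463 and 388 CPM against 96.7, 69.3 and 45.6 CPM. Elane was 1130, 674 and 1090 CPM against 155, 101 and 347 CPM. The exceptions to separation were S100a8 and S100a9: S100a8 was 79.9 CPM in WT number 30, within the V617F range of 59.6 to 115 CPM, against 377 and 363 CPM in the other WT libraries. S100a9 followed it, at 17.9 CPM in WT number 30 and 9.71 to 30.2 CPM in V617F.

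Mpo passed under every other tool and filter tried but rested on the number of libraries: without V617F number 1, 2 or 3, or WT number 30 or 32, its edgeR adjusted p was 0.0552 to 0.161, with log2 differences of -2.64 to -3.46. The WT MkP libraries also had fewer genes with counts (11483 to 12463 against 14634 to 15167), and monocyte markers summed to 336 to 452 CPM in WT against 49.6 to 104 CPM in V617F, with 12 of 14 having a negative sign and 0 passing. Eosinophil, basophil and mast cell markers summed to 251 to 354 CPM against 64.4 to 140 CPM, with 0 of 10 tested passing. Megakaryocyte markers overlapped (5870 to 6580 against 5770 to 7070 CPM). Erythroid markers summed to 2250 to 2380 CPM in WT and 1370 to 1730 CPM in V617F, and 2 of 11 tested passed as lower, Car1 (edgeR adjusted p = 0.0198) and Ermap (0.0439). B cell markers summed to 135 to 144 CPM and 56.5 to 87.2 CPM, with none of 8 passing. The other promyelocyte genes overlapped, at 1320 to 1600 CPM in WT and 1190 to 1500 CPM in V617F, with 8 negative and 2 positive signs. The late neutrophil genes summed to 613 to 853 CPM in WT and 418 to 492 CPM in V617F, with 12 negative and 6 positive signs. In both lists 0 passed. The part of these differences in the Mpo result was not tested.

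**Figure D3:**
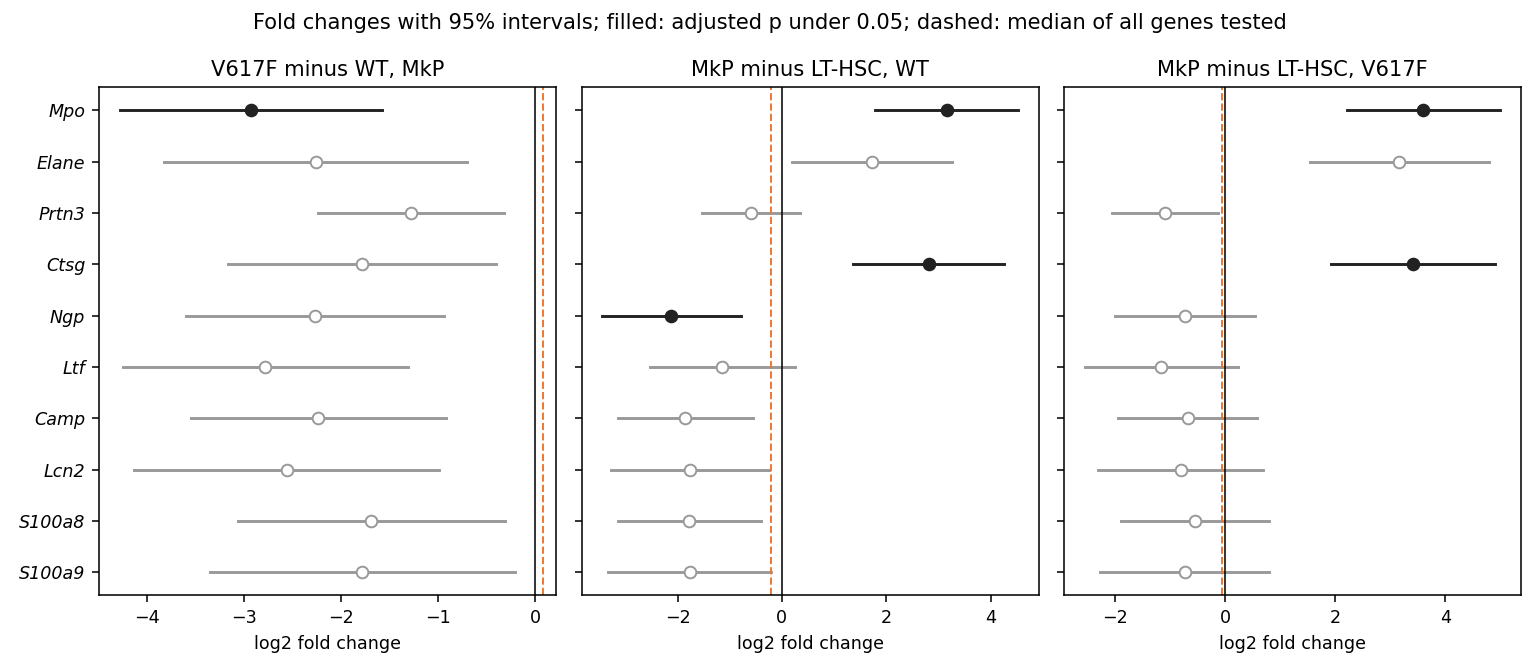
Log2 fold changes of the 10 genes (points) with 95% intervals (lines) in 3 comparisons of SMART-Seq v2 libraries; filled points passed at an adjusted p under 0.05 and the dashed line is the median of all genes tested. Mpo is at -2.93 in V617F MkP, and Mpo and Ctsg lie right of 0 in MkP against LT-HSC of both genotypes.

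In LT-HSC, whose genotype difference was known when the genes were picked, all 10 had lower means in V617F. Ngp was 2570, 611 and 1240 CPM in WT and 208, 64.5 and 79.5 CPM in V617F. Mpo was 469, 1300 and 959 CPM against 172, 39.5 and 50.1 CPM, and S100a8 was 1430, 426 and 959 CPM against 218, 71.2 and 82.3 CPM. Prtn3 was the exception to separation of the groups, at 600, 364 and 212 CPM against 266, 264 and 153 CPM. In 9 of the 10 every V617F library was below every WT library, where 5.63% of all genes were. Nothing is read from this count, and sex follows genotype in this comparison.

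The V617F effect in MkP minus that in LT-HSC, on the log2 scale, was 0.45 for Mpo (95% interval -1.33 to 2.23), 1.38 for Ngp (-0.42 to 3.19) and -0.50 for Prtn3 (-1.83 to 0.84). The LT-HSC effect entered the choice of genes, so these differences are a description, and nothing is read from them about whether the effects differ.

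Prtn3 had the largest share of the 10 genes, per length, in every CD41 library but WT CD41- number 1. In CD41- HSC it was 104, 102 and 117 CPM in WT (numbers 1, 3 and 4) and 136, 103 and 122 CPM in V617F (numbers 1, 2 and 3), a mean of 108 ± 8.43 (SD, n = 3) against 120 ± 16.3 (SD, n = 3). The log2 difference was 0.16 (95% interval -0.12 to 0.45, edgeR adjusted p = 0.375). Per length, Prtn3 was 61.2 to 90.7% of the 10 genes' sum in 8 of the 11 CD41 libraries and 14.4 to 31.7% in the other 3, which are WT CD41- number 1 and V617F CD41+ numbers 1 and 3. In MkP it was 3.56 to 10.1%.

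In CD41+ HSC, Prtn3 was lower with V617F. It was 81.9 and 73.1 CPM in WT (numbers 3 and 4) and 40.7, 47.5 and 36.7 CPM in V617F (numbers 1, 2 and 3), without overlap. Of all genes, 17.8% were lower in V617F without overlap. The fold was 1.86 (log2 -0.90, SE 0.15, edgeR adjusted p = 0.0114), and it was the 1 member to pass as lower, where 0.94% of 14467 genes did. With replicate number as a block the log2 difference was again -0.90, with an edgeR adjusted p of 0.0576. Leaving out WT 3, WT 4, V617F 1 or V617F 3 gave adjusted p of 0.2, 0.059, 0.0582 and 0.0603 with log2 differences of -0.81 to -0.98. Without the male V617F number 2 the call held (edgeR adjusted p = 0.00896).

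Prtn3 also fell from CD41- to CD41+ cells. In V617F the libraries of the same number went from 136 to 40.7, from 103 to 47.5 and from 122 to 36.7 CPM, a log2 difference of -1.53 (SE 0.13, edgeR adjusted p = 1.08e-05), which kept its call under all alternatives tried. In WT the means were 108 and 77.5 CPM (log2 -0.47, SE 0.15, edgeR adjusted p = 0.028). Prtn3 was lower in CD41+ cells without overlap in both genotypes, as were 29.3% of all genes in WT and 27.7% in V617F. In WT the call was lost without CD41+ number 3 or 4 (adjusted p = 0.0853 and 0.208), with only the groups compared (0.088), with no filter (0.0564) and with a mouse block (0.0565). The V617F effect on Prtn3 in CD41+ minus that in CD41- HSC was -1.06 (SE 0.20, unadjusted p = 0.000134), with an edgeR adjusted p of 0.566. DESeq2 gave it an adjusted p of 0.0117, and without WT CD41- number 4 edgeR gave 0.00628.

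Elane, the neighbour of Prtn3 with the same pair of letter cores upstream, was close to the limit of counting in some of the same libraries. In WT CD41+ HSC Elane was 0.293 and 0.172 CPM (6 and 4 counts) beside 81.9 and 73.1 CPM of Prtn3, and in V617F CD41+ number 3 it had 2 counts. Per length, Prtn3 was 0.208 to 0.717 times Elane in MkP, 1.04 to 1.77 times in WT LT-HSC, 5.04 to 34.9 times in V617F LT-HSC and 7.95 to 442 times in the CD41 fractions. The ratio thus spans more than 3 orders of magnitude, although the values from 265 to 442 rest on 2 to 6 counts of Elane. Across the v4 libraries Prtn3 had r of 0.43 with Elane, and across the v2 libraries 0.24.

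**Figure D4:**
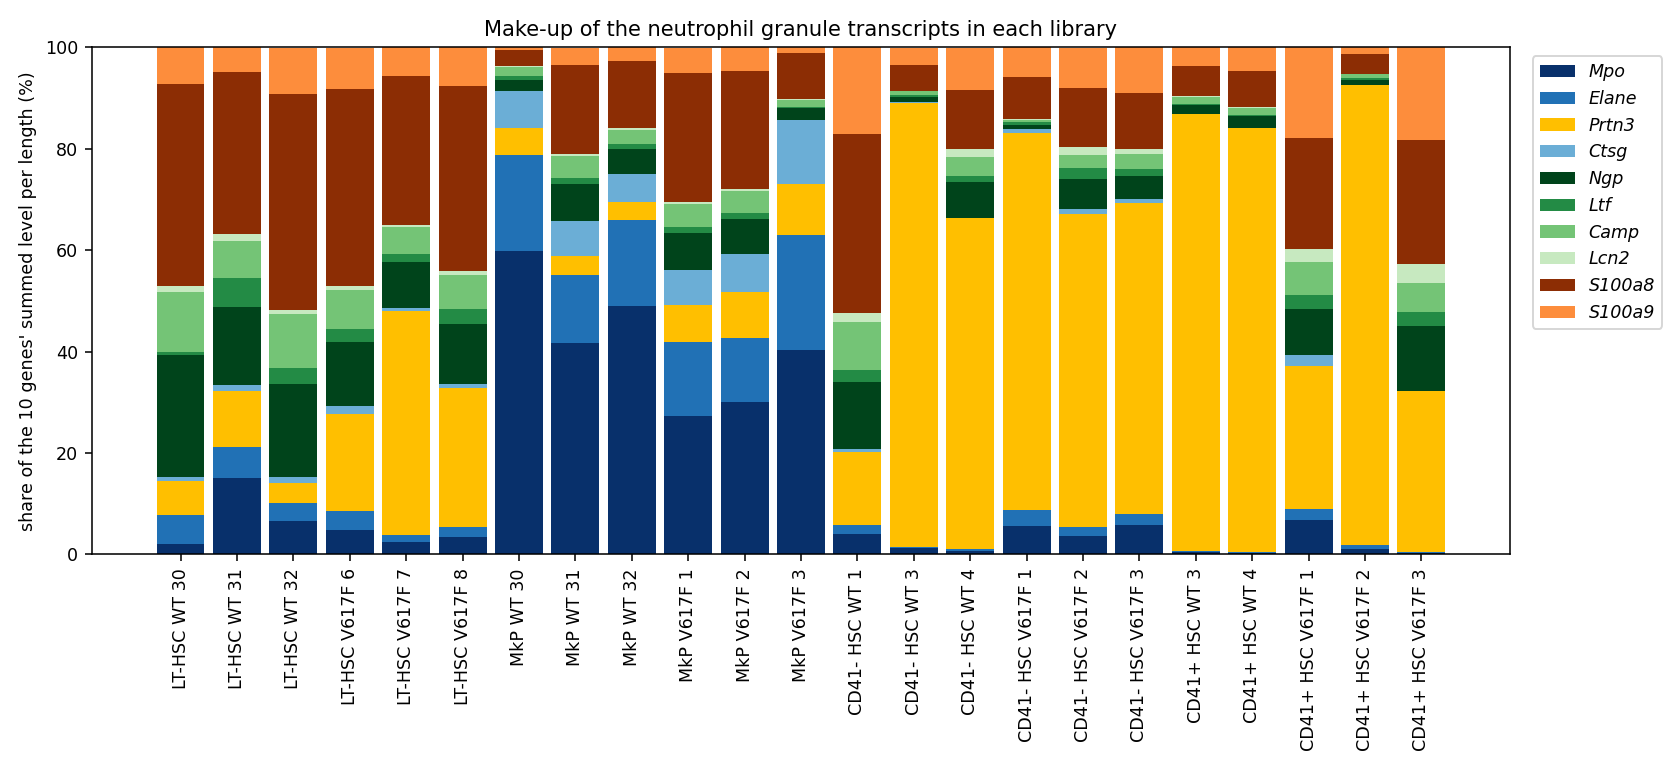
Share of each gene in the 10 genes' summed level per length (%), 1 bar per library, numbered as in the labels. Mpo is the largest part of every MkP bar, S100a8 of every WT LT-HSC bar, and Prtn3 of every CD41 bar but WT CD41- number 1, where S100a8 is 35.3%.

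The other 9 genes varied widely between libraries in WT CD41- and V617F CD41+ HSC. WT CD41- number 1 had 75.7 CPM of Mpo, 112 CPM of Ngp and 103 CPM of S100a8, where numbers 3 and 4 had 4.16 and 3.02, 1.42 and 15.2, and 2.46 and 8.51 CPM. Prtn3 was not raised in it, at 104 CPM. That library and number 3 also had 1.38 and 1.68% of counts on Lars2, against 0.101 to 0.15% in the other v4 libraries. The part of the Lars2 share in the granule gene levels was not tested.

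The granule stages could come apart in these libraries. V617F CD41+ number 3 had 18.0 CPM of Ngp, 11.5 CPM of S100a8 and 3.80 CPM of Lcn2, but 1.08 CPM of Mpo and no count of Ctsg, which allows up to 0.141 CPM at 3 counts. WT CD41- number 4 likewise had 15.2 CPM of Ngp with 3.02 CPM of Mpo and no count of Ctsg (up to 0.151 CPM). V617F CD41- number 1 had the reverse, with 27.0 CPM of Mpo and 1.97 CPM of Ngp. V617F CD41+ number 1 had both, at 25.8 and 15.7 CPM, and V617F CD41+ number 2 neither, at 1.35 and 0.598 CPM. Per length, the ratio of Mpo, Elane and Ctsg to the 4 specific granule genes ranged from 0.0176 to 4.78 in the 11 CD41 libraries, 4.78 being V617F CD41- number 1.

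In CD41- HSC 0 of the 10 passed for V617F against WT in edgeR, where 13.4% of genes did, and 2 had an unadjusted p under 0.05 (36.7% of all genes). DESeq2 passed 0 of the 9 members to which it gave an adjusted p (3380 of 14467 genes). Ngp had group means of 8.32 and 43.0 CPM in V617F and WT, with overlapping libraries and a 95% interval of -4.93 to 0.18 (log2). In CD41+ HSC the 9 genes other than Prtn3 had overlapping libraries and edgeR adjusted p of 0.389 to 0.701. From CD41- to CD41+ in WT, 5 passed as lower (Mpo, Prtn3, Ltf, Camp and S100a8), where 18.2% of genes did. Mpo and Ngp of WT CD41- number 1, which is part of this comparison, had been seen when the genes were picked. Without that library Prtn3 alone passed (3890 of 14361 genes in either direction). Without number 3 there were 9 (3668 of 14356 genes) and without number 4 all 10 (7082 of 14406). Without WT CD41+ number 3 or 4 there were 0 (1949 of 14895 and 1215 of 14861 genes).

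In V617F, 1 passed as lower from CD41- to CD41+, Prtn3, where 17.9% of genes did. With the mouse as a block, which the paired deviations of these libraries allow, 3 passed: Mpo (log2 -2.47, edgeR adjusted p = 0.0271), Elane (-2.35, 0.0168) and Prtn3. Mpo was 27.0, 15.7 and 29.9 CPM in CD41- and 25.8, 1.35 and 1.08 CPM in CD41+ cells of the same numbers. The V617F effect did not pass as different between the fractions for any of the 10 in edgeR, where 0% of 14467 genes passed. An unadjusted p under 0.05 was found for 7 of the 10 and for 8.81% of all genes. Nothing is read from this count, as WT CD41- number 1, seen when the genes were picked, is part of the comparison. The median log2 difference of the 10 was 4.39, against 1.41 without that library and 0.87 with the mouse block. DESeq2 passed 1 member, Prtn3, and 6 genes in all.

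Other genes of these stages were read from the same lists, where 18.2% of all genes passed as lower from CD41- to CD41+ cells in WT and 17.9% in V617F. Of 13 late neutrophil genes tested, 7 passed as lower in WT and 4 in V617F, with none higher. Csf3r fell from 134 to 45.6 CPM in WT (edgeR adjusted p = 0.00198) and from 130 to 28.6 CPM in V617F (edgeR adjusted p = 5.3e-05). Of 10 promyelocyte genes, 4 passed as lower and 2 as higher in WT, with a median log2 difference of 0.30, and 3 as lower and 1 as higher in V617F. Among them the serine protease Prss57 had means of 10.2 and 4.17 CPM in WT CD41- and CD41+ cells (edgeR adjusted p = 0.00137) and 19.7 and 6.94 CPM in V617F (9.1e-05). Gfi1, a repressor needed for neutrophil development, had means of 26.2 and 1.92 CPM in WT (edgeR adjusted p = 0.000628) and 31.1 and 1.25 CPM in V617F (4e-05). Of 9 transcription factors tested, 4 passed as lower in WT, and 3 as lower and 1 as higher in V617F. Megakaryocyte markers, a list that includes Itga2b, the gene of the sort marker CD41, passed as higher for 8 of 11 in each genotype. In either direction 4917 of 14467 genes passed in WT and 4960 in V617F.

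Within the sets, ratios per length were steady for some partners and not for others. Ngp was 1.22 to 2.5 times Camp in all 23 libraries, while Ngp itself ranged from 0.598 to 2570 CPM. S100a8 was 4.68 to 8.2 times S100a9 in the 12 v2 libraries and 1.21 to 3.25 times in the 11 v4 libraries. These ranges did not overlap, and kit and cell population cannot be told apart there. WT LT-HSC number 30 departed in several pairs: Ngp was 41.0 times Ltf, against 1.85 to 16.8 times in the other libraries, and Mpo 0.348 times Elane, against 1.22 to 6.87 times. V617F MkP number 3 had the highest Mpo of its group (1720 CPM) with the lowest Ngp (45.6 CPM) and Ltf (7.44 CPM).

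Of 10138 further genes, the one most like the members was Chil3, which encodes a chitinase-like protein of myeloid cells and was on the list of late neutrophil genes. Likeness was the lower of 2 Pearson r, in v2 and v4 libraries, between a gene and the members' mean log2(CPM + 1). Chil3 had r of 0.82 over 12 and 0.96 over 11 libraries, and ranked first also by Spearman correlation and with group means removed. It was 184 ± 93 CPM in WT LT-HSC, 64.2 ± 41.7 in WT MkP, 27.4 ± 15.8 in V617F LT-HSC and 10.9 ± 5.34 in V617F MkP (SD, n = 3 each). The next 9 were Clasp2, Cdc37, Glmp, Trmu, Ncf4, Drosha, Ctnna1, Gpt2 and Ly6e, with a lower r of 0.60 to 0.68. None of these 9 was among the first 10 with group means removed. As the members fall into sets that vary apart, the mean they were compared with follows the specific granule and S100 genes more closely (r of Ngp with it 0.88 and 0.92) than Mpo (0.69 and 0.84).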

How the data were processed

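The submitters' processing notes name STAR 2.5.2a, the mm10 build, R 3.4.2 and limma, without saying how each was used. A counting tool, strand setting or gene annotation is not given in the sources used here. Raw counts were deposited by the authors as 1 table (24454 genes, 23 libraries, 11 genes without a symbol), with gene lengths; 0 columns belong to other samples. SMART-Seq v2 (12) and v4 (11) libraries were fitted apart with edgeR 4.0.16 in R 4.3.3 (limma 3.58.1): filterByExpr, TMM, 1 mean per group, quasi-likelihood F test, Benjamini-Hochberg over all 14281 or 14467 genes, called at 0.05. CPM use TMM-scaled totals, and levels per length divide by the table's gene length. The script was tested on simulated data with log2 changes of 1, 2 and 3. For V617F against WT in MkP it recovered 0 of 67, 6 of 67 and 24 of 66 changed genes. In CD41+ HSC it recovered 36 of 67, 53 of 67 and 65 of 66. Most changes of these sizes in MkP thus did not pass. Floors of 3 counts cover counting error only, and 95% intervals come from the fitted model.

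The members and all gene lists were chosen with earlier results of these data known. Named genes are the 10 members, up to 4 genes per list with the smallest p, and the 10 genes most like the members among those reaching 10 CPM in each protocol. Alternatives were DESeq2 1.42.0, limma-voom, RLE factors, tests with no filter, a stricter filter (5 CPM in at least 3 libraries), only the groups compared, each library left out, the male mouse omitted and replicate blocks. Replicate numbers were checked by correlating deviations from group means over 14467 genes: same-numbered V617F CD41- and CD41+ libraries had r of 0.431, 0.551 and 0.41 and were taken as paired. Gene positions and promoters are from RefSeq, GRCm38.p6, and all 10 members had a promoter entry.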

Additional observations from a re-analysis of the deposited data

How the results depend on the processing

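The number of the 10 genes passing depended on the tool where variation between libraries was large. In the CD41 comparisons some alternatives tested fewer than 10: DESeq2 gave an adjusted p to 9, and the stricter filter left 6. With only the groups compared, 8 were tested in CD41+ HSC by genotype and 9 for CD41+ against CD41- in WT. DESeq2 passed 9 in LT-HSC by genotype (edgeR 0), a difference known when the genes were picked, 6 in MkP by genotype (1), 6 for MkP against LT-HSC in WT (3), 8 for CD41+ against CD41- HSC in WT (5) and 1 for the difference of V617F effects between the CD41 fractions (0). Limma-voom passed 6, 4, 4 and 1 in the first 4 of these, and 1 for MkP against LT-HSC in V617F (2). Fitting only the groups compared gave 5 in MkP by genotype, 0 for MkP against LT-HSC in WT and 0 for CD41+ against CD41- in WT, and testing with no filter gave 8 in the last. Leaving out each library in turn gave 0 to 2 in LT-HSC by genotype, 0 to 1 in MkP, 0 to 1 in CD41- HSC and 0 to 1 in CD41+ HSC by genotype, 1 to 3 (WT) and 0 to 3 (V617F) for MkP against LT-HSC, 0 to 10 (WT) and 1 to 2 (V617F) for CD41+ against CD41-, and 0 to 1 for the difference between the CD41 fractions. The cause was not tested.

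With a replicate block, 0 passed by genotype in CD41+ HSC (1 without), 0 for CD41+ against CD41- in WT (5 without) and 3 in V617F (1 without). Same-numbered WT libraries shared only a number (r of deviations -0.0381, -0.00584 and 0.0175 for LT-HSC and MkP, 0.0744 and 0.0149 for the CD41 fractions). No other count moved by more than 1.5 times under the block.

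Of the fold changes of single members, 1182 alternative values kept direction and side of the threshold 60 passed where the reported value did not, 60 did not pass where it did, and 50 changed direction, none of them on a called member. For V617F against WT in CD41- HSC, limma-voom gave 1.27 for Mpo, 1.71 for Elane and 2.46 for Ctsg (log2), the replicate block 1.34, 1.09 and 1.12, and omission of the male 0.04 for Mpo and 0.17 for Elane. For CD41+ against CD41- in V617F, limma-voom gave -0.15 for Ngp, -0.61 for S100a8 and -0.95 for S100a9, and the block -0.20 and -0.24 for the last 2. For the difference of V617F effects between the fractions, limma-voom gave -0.69 for Elane and -0.17 for Ctsg, and the block -0.55 for Mpo and -1.46 for Elane. Leaving out a library turned the sign of V617F against WT in CD41- HSC for Mpo (-0.72 to 2.74), Elane (-0.61 to 3.24), Ctsg (-0.70 to 4.16), Ltf (-2.02 to 0.89), Lcn2 (-2.34 to 0.17), S100a8 (-2.86 to 0.46) and S100a9 (-2.31 to 0.54). It did so for CD41+ against CD41- in V617F for Ctsg (-4.82 to 0.11), Ngp (-0.03 to 1.03), Ltf (-0.60 to 0.54), Camp (-0.04 to 1.19), S100a8 (-0.31 to 0.66) and S100a9 (-0.35 to 0.76), and for MkP against LT-HSC in V617F for Camp (-0.99 to 0.10), Lcn2 (-1.23 to 0.16), S100a8 (-0.82 to 0.17) and S100a9 (-1.10 to 0.02). The differences of V617F effects turned for Mpo (-0.08 to 1.45), Ctsg (-0.11 to 1.94) and Ltf (-0.39 to 0.71) between MkP and LT-HSC, and for Elane (-0.95 to 2.91) between the CD41 fractions. Where leaving out a library left 1 in a group, that library was assumed to vary like the others. Depth limits Ctsg, Elane and Lcn2 in CD41+ HSC, where several libraries hold fewer than 10 counts.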

Other observations

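Several basophil and mast cell transcripts were high in WT MkP. By genotype in MkP, 0 of 10 tested from the eosinophil, basophil and mast cell list passed, with 8 negative and 2 positive signs. The basophil protease Prss34 was 35.3 to 136 CPM in WT MkP, 2.29 to 4.81 CPM in V617F MkP and at most 0.332 CPM in any LT-HSC library, and had no count in the CD41 fractions. Mcpt8, another basophil protease, was 8.43 to 25.1 CPM in WT MkP, 2.29 to 11.5 CPM in V617F MkP and without a count in WT LT-HSC. Hdc, which makes histamine, was 23.6 to 114 CPM in WT MkP and 4.91 to 15.3 CPM in V617F MkP (edgeR adjusted p = 0.102), and the mast cell protease Cpa3 32.4 to 79.2 CPM and 12.4 to 46.7 CPM. The IgE receptor chain Fcer1a did not follow them, at 12.6 to 33.5 CPM in WT and 24.1 to 48.7 CPM in V617F MkP.

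Cebpe, the C/EBP factor of specific granule formation, was 15.5 to 21.7 CPM in WT LT-HSC, 0.468 to 1.74 CPM in V617F LT-HSC, 10.2 ± 2.74 CPM (SD, n = 3) in WT MkP and 2.28 ± 1.5 CPM in V617F MkP, and each V617F group lay below its WT group without overlap (edgeR adjusted p = 0.144 and 0.207). Irf8, a factor of monocyte progenitors, was 84.8 to 119 CPM in WT MkP and 5.80 to 9.33 CPM in V617F MkP (edgeR adjusted p = 0.136). Both are from the list of 10 granulocyte transcription factors. By genotype, 5 of the 10 had a negative sign and 5 a positive one in LT-HSC, and 7 and 3 in MkP, with 0 passing. Of all genes, 5.63% in LT-HSC and 9.99% in MkP were lower in V617F without overlap. Sex follows genotype in LT-HSC.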
